A study of Homo sapiens with 72 samples.

Results

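The messages of 10 secreted signalling proteins were followed in PEO1 cells, an established line of high-grade serous ovarian cancer (HGSOC): the neutrophil chemokines CXCL8, CXCL1, CXCL2 and CXCL3, the chemokines CCL2 and CCL20, the IL6 family cytokines IL6, IL11 and LIF, and IL1A. They were selected by name as chemokines and inflammatory cytokines, with a rise of CXCL8 and CXCL1 after 24 h of drug already known. All 10 were among the 56302 genes with a matched transcript and among the 20136 genes tested. The cells had received DMSO (Vehicle) or rucaparib at 8.5 µM for 2 or 24 h, a drug that blocks PARP and fluoresces on its own. Ruc_Low and Ruc_High are the 20% of treated cells with the lowest and the highest drug fluorescence in a cell sorter. Ruc_Total is treated cells without a gate, which, like Vehicle, were scraped straight into lysis buffer and were not sorted, so a difference of sorted from unsorted cells holds the harvest and the sort together. Of every one of the 8 groups there were 3 biological replicates, each sequenced as 3 libraries, and all of them are the same line with no other agent named in the labels.

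CXCL8, CXCL1, CXCL2 and CXCL3 draw neutrophils through the receptors CXCR1 and CXCR2, CCL2 draws monocytes through CCR2, and CCL20 acts on cells that carry CCR6. IL6, IL11 and LIF signal through the shared receptor chain gp130 (IL6ST), and IL1A is an alarm cytokine that signals through the IL-1 receptor. Many of these genes are classic targets of NF-kB and AP-1, and their messages hold AU-rich elements that proteins such as ZFP36 bind to speed decay. Ovarian cancer cells are known to secrete several of these proteins, IL6 and CXCL8 among them.

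By the annotation (GRCh38), the 4 CXC chemokines lie on chromosome 4, CXCL8 at chr4:73740506-73743716, CXCL1 at chr4:73869393-73871242, CXCL3 at chr4:74036589-74038807 and CXCL2 at chr4:74097035-74099293. The other genes are IL6 at chr7:22725884-22732002, IL11 at chr19:55364389-55370463, LIF at chr22:30240447-30246851, CCL2 at chr17:34255218-34257203, CCL20 at chr2:227805739-227817564 and IL1A at chr2:112773915-112784590.

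To show the letters through which NF-kB is known to reach these genes, promoter stretches of the 5 members with a kB match that were not barely detected are printed from 150 bases before the start of the gene. In RefSeq's table (GRCh38.p14), 8 of the 10 members had a promoter entry. Capitals mark the kB motif GGNNTTTCC, the AP-1 motif TGANTCA and the TATA box TATAAA, searched on both strands with no overlap among the matches shown. The stretches lie at chr4:73740419-73740618 on the plus strand, chr4:73869243-73869442 on the plus strand, chr4:74099146-74099345 on the minus strand, chr4:74038640-74038839 on the minus strand and chr7:22727050-22727249 on the plus strand, and each is written in the direction of its gene.
CXCL8: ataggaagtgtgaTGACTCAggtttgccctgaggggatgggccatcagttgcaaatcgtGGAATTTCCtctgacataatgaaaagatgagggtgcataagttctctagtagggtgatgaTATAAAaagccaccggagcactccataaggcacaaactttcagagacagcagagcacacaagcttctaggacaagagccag
CXCL1: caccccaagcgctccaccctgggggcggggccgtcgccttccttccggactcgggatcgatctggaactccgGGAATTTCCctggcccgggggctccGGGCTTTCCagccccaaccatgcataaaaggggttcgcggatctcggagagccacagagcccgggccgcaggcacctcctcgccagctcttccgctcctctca
CXCL2: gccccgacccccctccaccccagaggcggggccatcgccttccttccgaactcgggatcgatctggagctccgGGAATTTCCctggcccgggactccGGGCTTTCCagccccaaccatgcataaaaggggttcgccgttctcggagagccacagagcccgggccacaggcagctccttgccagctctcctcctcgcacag
CXCL3: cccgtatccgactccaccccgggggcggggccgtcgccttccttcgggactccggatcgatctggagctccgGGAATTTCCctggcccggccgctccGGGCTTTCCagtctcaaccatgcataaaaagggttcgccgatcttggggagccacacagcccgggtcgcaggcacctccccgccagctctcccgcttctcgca
IL6: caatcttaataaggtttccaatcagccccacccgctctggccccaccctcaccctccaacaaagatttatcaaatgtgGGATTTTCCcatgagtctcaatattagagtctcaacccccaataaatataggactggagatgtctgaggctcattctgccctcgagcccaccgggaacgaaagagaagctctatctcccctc

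The kB motif stood 91 to 83 bases before the start of CXCL8, and an AP-1 match 137 to 131 bases before it. CXCL1, CXCL2 and CXCL3 each held 2 kB matches, GGAATTTCC and GGGCTTTCC, at nearly the same distances (78 and 53 bases before the start in CXCL1 and CXCL3, 77 and 53 in CXCL2). Over these 200 bases without gaps, CXCL1 and CXCL3 shared 86.5% of their letters, CXCL1 and CXCL2 shared 66.5%, and CXCL1 and CXCL8, at the best of a few small shifts, 28.3%. IL6 held GGATTTTCC 72 to 64 bases before its start. CCL20 held a kB match on the opposite strand, while IL11 and IL1A held AP-1 matches and no kB match in the 300 bases given. Of all 27305 promoters of that length, 6.26% held the kB motif, 7.76% the AP-1 motif, and 3264 held the TATA box. These matches describe letters, not binding. In the GENCODE v29 sequences of their messages, 15.5% of the 31-base words of the main CXCL1 transcript stood in that of CXCL2 and 2.81% in that of CXCL3. Of those of CXCL3, 9.57% stood in CXCL2, and none of the 3 shared a word with CXCL8. These sequences of CXCL1, CXCL2 and CXCL8 had 1097, 1218 and 1705 bases, while those that Salmon used had 1174, 1115 and 1642. The main CXCL3 transcript held 53.7% of that gene's reads. How Salmon divided the reads of shared stretches was not tested.

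Read totals per library were 17391033 to 38899905 (median 33431404), and the 3 libraries of each replicate were summed, giving 24 samples. The reads' mean transcript length ranged from 2255 to 3299 bases among libraries. A library of Ruc_Low replicate 2 at 2 h had 32211 genes with a count and a library of Vehicle replicate 1 at 2 h had 26770, against 20799 to 24193 in the rest. The 10 epithelial and serous markers summed to 11438 to 17744 TPM per library (transcript abundance that accounts for length), with KRT7 the highest at 5374 TPM on average and PAX8 at 55.4. The 10 leukocyte markers summed to 8.80 to 25.9 TPM, mostly CD68, and PTPRC, CD3E and TYROBP were listed at 0 in 60, 65 and 70 of the 72 libraries. In bulk RNA such as this, more message per cell and more cells with the message cannot be told apart.

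Levels are given as CPM, read counts scaled to library size by TMM, for comparing samples, and as TPM for comparing genes. Per length, CXCL8 was the most abundant member, at 96.9 TPM over the 24 samples, followed by CXCL1 at 69.5, IL6 at 39.01 and LIF at 21.97 TPM. CXCL2 reached 8.55, CCL2 4.63, CXCL3 2.20, CCL20 1.19, IL1A 0.938 and IL11 0.301 TPM. CCL20 was barely detected: its highest group mean was 0.613 CPM, in Ruc_Total at 24 h, and under 1 read was assigned to it in 3 of 72 libraries. The other 9 members exceeded 1 CPM in at least 1 group mean, although IL11 did so only in Vehicle at 2 h (2.21 CPM), through a single replicate, and stayed at 0.482 to 0.749 CPM in the other 7 groups. Vehicle at 24 h was the lowest of the 8 groups for 8 members, CXCL3 and IL1A being lowest in Vehicle at 2 h. For CXCL8 and CXCL1 the order of the 8 group means broke once: the 6 treated groups lay above both Vehicle groups with no overlap of Ruc_Total at 2 h with Vehicle at 2 h, and no other neighbours in that order were clear of each other. For LIF in CPM the 4 sorted groups lay above both Ruc_Total groups, and these above both Vehicle groups, without overlap at either step. In TPM LIF overlapped at both steps, and CXCL8 of Ruc_Total at 2 h overlapped that of Vehicle at 2 h. CXCL2 was also highest in the 4 sorted groups, clear of all unsorted groups.

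**Figure D1:**
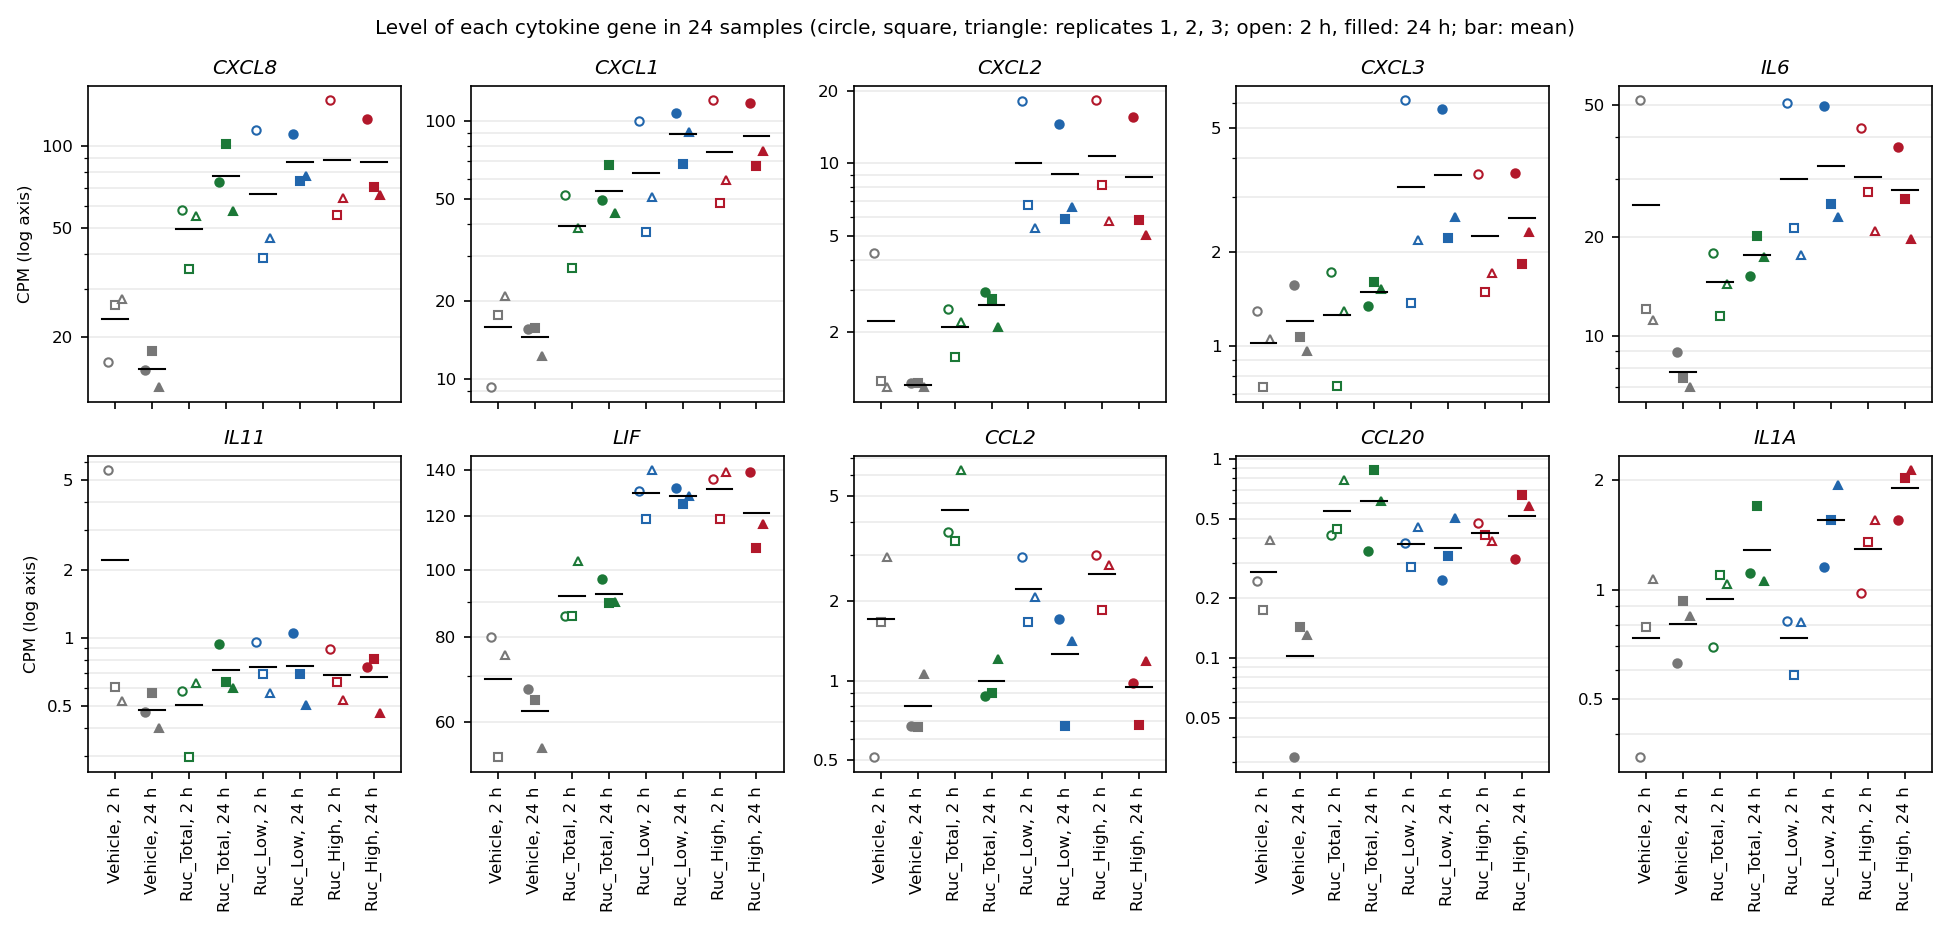
CPM (log axis) of the 10 genes in 24 samples, by treatment, gate and time; symbols are replicates 1 to 3 and the bar is the group mean. CXCL8 and CXCL1 sit lowest in Vehicle, and LIF and CXCL2 sit highest in the 4 sorted groups; the open circle of Vehicle at 2 h stands apart for IL6 and IL11.

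Vehicle replicate 1 at 2 h stood apart from its group before any comparison. It held 51.8 CPM of IL6 against 12.1 and 11.2 in replicates 2 and 3, 5.49 CPM of IL11 against 0.606 and 0.524, and 4.27 CPM of CXCL2 against 1.26 and 1.18. In the other direction, it held 0.511 CPM of CCL2 against 1.67 and 2.94. All 3 of its libraries carried the pattern, with IL6 at 42.4, 49.6 and 51.7 CPM. These library values are reads over each library's own total, without the TMM scaling of the sample values. Where a difference is said to hold in a replicate, it is between samples that carry the same replicate number.

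After 24 h of rucaparib the neutrophil chemokines CXCL8 and CXCL1 were, after the barely detected CCL20, the members farthest above Vehicle. CXCL8 was at 15.1, 17.8 and 13.03 CPM in Vehicle and at 74.0, 101 and 57.9 in Ruc_Total. CXCL1 was at 15.6, 15.8 and 12.2 CPM in Vehicle and at 49.4, 67.8 and 44.1 in Ruc_Total. The groups did not overlap for either gene, and the log2 differences of 2.35 (SE 0.42) and 1.89 (SE 0.40) correspond to 5.09-fold and 3.69-fold. Because the choice of members used this contrast, no test is given for it.

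The other members were also above 0 in that contrast, by smaller margins except for CCL20. IL6 went from 8.95, 7.45 and 6.998 CPM in Vehicle to 15.3, 20.1 and 17.4 in Ruc_Total (log2 difference 1.17, SE 0.50), and CXCL2 from 1.23, 1.23 and 1.18 CPM to 2.93, 2.73 and 2.10 (1.09, SE 0.58). LIF is read through the LIF receptor with gp130. It stood at 67.1, 64.7 and 54.98 CPM in Vehicle and 97.0, 89.6 and 89.9 in Ruc_Total (0.57, SE 0.13). In CPM none of these 3 genes overlapped between the groups, and neither did IL1A, IL11 or CCL20. The share of all genes without such overlap was not counted, here or in any other comparison. In TPM LIF and IL11 overlapped, LIF being at 15.3, 14.8 and 12.2 in Vehicle and 15.8, 14.4 and 22.2 in Ruc_Total. With an offset for effective length LIF differed by 0.40 (SE 0.18), and on log2(TPM + 1) by 0.27 (SE 0.22). Mean transcript length was 3120, 3107 and 3231 bases in Vehicle and 2746, 2711 and 3229 in Ruc_Total, and its part was not tested. IL1A (0.68, SE 0.33), IL11 (0.58, SE 0.62), CXCL3 (0.32, SE 0.49) and CCL2 (0.31, SE 0.46) differed by about 2 SE or less. The difference of CCL20 was 2.58 (SE 0.49), but it rests on 0.0315, 0.143 and 0.130 CPM in Vehicle and 0.344, 0.877 and 0.618 in Ruc_Total. Of 5 leukocyte markers tested, 4 were above 0 in the same contrast, with a median of 0.49. edgeR called none, with 2 at an unadjusted p under 0.05, beside 4936 of all 20136 genes. DESeq2 and limma-voom each called 1 of these markers. CD68 and CD14, the most abundant, differed by 0.02 and -0.01, and the 10 markers summed to 12.96 to 18.2 TPM per library in Vehicle and 8.80 to 21.99 in Ruc_Total. Their part in the members' differences was not tested. The median of the 10 members was 0.89 and that of all genes tested 0.03, a description of a set chosen with its leading genes known.

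Among genes related to the members, those of the NF-kB loop and a few other cytokines passed the test at 24 h, where edgeR called 3.35% of all genes at an adjusted p under 0.05. Of 15 NF-kB factors and feedback genes, 4 rose and none fell: TNFAIP3, a feedback inhibitor of NF-kB also called A20, by 1.26 (SE 0.29, adjusted p = 0.024), RELB, an NF-kB subunit, by 1.13 (SE 0.26, adjusted p = 0.025), IER3 by 1.09 (SE 0.28, adjusted p = 0.041) and TNIP1, a partner of A20, by 0.45 (SE 0.079, adjusted p = 0.0054). Of 15 other cytokines tested of 18, 4 rose and none fell. IL32 rose by 1.45 (SE 0.21, adjusted p = 0.0012), IL24 by 1.06 (SE 0.24, adjusted p = 0.025) and CTF1, an IL6 family cytokine, by 0.89 (SE 0.21, adjusted p = 0.026). CSF2, which encodes GM-CSF, rose by 3.52 (SE 0.54, adjusted p = 0.0022) from a very low level, averaging 0.401 CPM across the samples. Of 15 tested receptors and signal chains, JAK2, the kinase of several cytokine receptors, fell by 0.74 (SE 0.19, adjusted p = 0.040). These calls depended on the replicates: over all genes 674 were called at 24 h, and 3 without replicate 2 or 180 without replicate 1. CXCR1, CXCR2, CCR2 and CCR6, the receptors of the chemokines themselves, were too low to test, at no more than 0.0842 TPM on average. Of 7 other chemokines, edgeR called none, with 2 at an unadjusted p under 0.05, beside 4936 of all 20136 genes. DESeq2 called none of them and limma-voom 1. The most abundant, CXCL16 and CCL28, averaged 29.7 and 2.46 TPM.

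After 2 h, 7 of the 10 members were above Vehicle in Ruc_Total and edgeR called none of them, beside 0.0248% of all genes called. At an unadjusted p under 0.05 there were 6, beside 1317 of all 20136 genes. DESeq2 called none, and limma-voom over the 72 libraries called 3, beside 0.502% of all genes. Those 3 were CXCL8, CXCL1 and CCL2. The limma-voom fit has libraries as its units, with a correlation among libraries of a sample that all genes share. It can call too readily for genes whose libraries agree more closely than that. CXCL8 was at 16.2, 26.2 and 27.4 CPM in Vehicle and 58.3, 35.3 and 55.5 in Ruc_Total (log2 difference 1.10, SE 0.40, edgeR adjusted p = 0.63). CXCL1 was at 9.28, 17.7 and 20.96 CPM in Vehicle and 51.8, 26.9 and 38.5 in Ruc_Total (1.29, SE 0.39, edgeR adjusted p = 0.41). CCL2 was at 0.511, 1.67 and 2.94 CPM in Vehicle and 3.65, 3.39 and 6.26 in Ruc_Total (1.37, SE 0.45, edgeR adjusted p = 0.50). In each of these 3 genes every Ruc_Total sample lay above every Vehicle sample, and in limma-voom their adjusted p were 0.048, 0.0042 and 0.0072. LIF and CCL20, which limma-voom did not call, were without overlap in CPM as well. In TPM CXCL1 was without overlap, and CXCL8, CCL2, LIF and CCL20 overlapped.

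LIF was at 79.8, 53.3 and 75.1 CPM in Vehicle and 85.7, 85.8 and 103 in Ruc_Total at 2 h (0.40, SE 0.13, edgeR adjusted p = 0.50). CCL20, at under 1 CPM, was higher in 3 of 3 replicates (1.02, SE 0.46, edgeR adjusted p = 0.73). IL11 and IL6 were lower on average, at -2.12 (SE 0.63, edgeR adjusted p = 0.40) and -0.78 (SE 0.50, edgeR adjusted p = 0.89). Without replicate 1 they were -0.28 and 0.16, CXCL2 moved from -0.09 to 0.64, and CXCL8, CXCL1, CCL2 and LIF were 0.76, 0.76, 1.07 and 0.56 higher and CCL20, IL1A and CXCL3 1.11, 0.20 and 0.19 higher, none passing in edgeR. Of the 15 NF-kB genes, 12 were above 0 at 2 h with a median of 0.26 (all genes 0.01), Vehicle replicate 1 included. edgeR called none of them, with 5 at an unadjusted p under 0.05, beside 1317 of all 20136 genes. DESeq2 called 1 of them and limma-voom 2, the latter beside 0.502% of all genes.

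**Figure D2:**
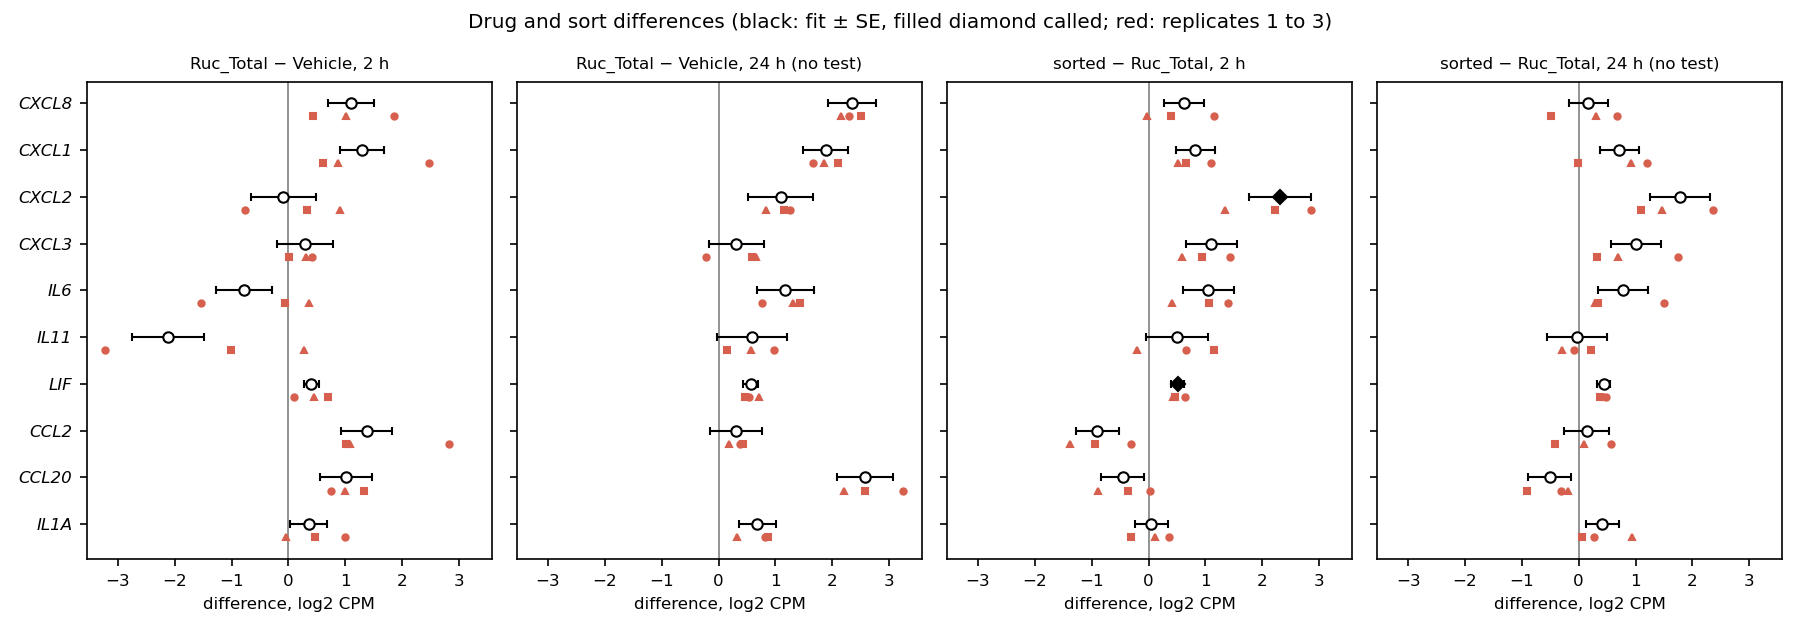
Log2 CPM differences of the 10 genes for Ruc_Total against Vehicle and for sorted cells against Ruc_Total, at 2 and 24 h; black marks are the edgeR fit with its SE, filled diamonds are calls, and red symbols are replicates 1 to 3. CCL20, CXCL8 and CXCL1 lead the drug difference at 24 h, CXCL2 leads the sort difference at both times, and CXCL2 and LIF are the 2 calls at 2 h.

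Sorted cells differed from Ruc_Total cells given the same drug for the same time, and CXCL2 was the member that differed most. The mean of Ruc_Low and Ruc_High was compared with Ruc_Total at 2 h, where edgeR called 2.41% of all genes and 2 of the 10 members, both higher. CXCL2 was at 2.50, 1.58 and 2.21 CPM in Ruc_Total, at 18.1, 6.71 and 5.38 in Ruc_Low and at 18.3, 8.16 and 5.80 in Ruc_High. It rose by 2.31 (SE 0.54, adjusted p = 0.031, edgeR), 4.96-fold, and every sorted sample lay above every Ruc_Total sample. LIF was at 85.7, 85.8 and 103 CPM in Ruc_Total, at 131, 119 and 140 in Ruc_Low and at 136, 119 and 139 in Ruc_High. It rose by 0.51 (SE 0.12, adjusted p = 0.028, edgeR), 1.43-fold, again without overlap.

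CXCL3, IL6 and CXCL1 were higher in sorted cells in 3 of 3 replicates and did not pass in the main edgeR test. Their edgeR differences were 1.10 (SE 0.44, adjusted p = 0.18), 1.05 (SE 0.45, adjusted p = 0.22) and 0.82 (SE 0.34, adjusted p = 0.21). With a replicate block, a term for the replicate number in the fit, edgeR called CXCL3 and IL6 besides CXCL2 and LIF. IL6 was at 17.8, 11.6 and 14.4 CPM in Ruc_Total, at 50.9, 21.3 and 17.6 in Ruc_Low and at 42.7, 27.4 and 20.8 in Ruc_High. Replicate 1 was the highest sorted sample of CXCL8, CXCL1, CXCL2, CXCL3 and IL6 in both gates at 2 h. limma-voom called 6 members, 5 higher and CCL2 lower, beside 5.41% of all genes. CCL2 was lower in 3 of 3 replicates (-0.90, SE 0.37, edgeR adjusted p = 0.20). It went from 3.65, 3.39 and 6.26 CPM in Ruc_Total to 2.93, 1.67 and 2.08 in Ruc_Low and 3.00, 1.86 and 2.75 in Ruc_High. These CPM did not overlap, while the TPM of CCL2 did. Without replicate 2 or without replicate 3, edgeR called no member, although CXCL2 was then 2.36 and 2.68 higher (adjusted p = 0.37 and 0.17).

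At 24 h the sort difference is described without a test, since it shares the Ruc_Total samples used to choose the members. CXCL2 was at 2.93, 2.73 and 2.10 CPM in Ruc_Total, 14.6, 5.89 and 6.63 in Ruc_Low and 15.6, 5.81 and 5.05 in Ruc_High (1.79, SE 0.53), and LIF was 0.44 higher (SE 0.12). Neither gene overlapped between sorted and unsorted cells. CXCL8 differed by 0.17 (SE 0.35), with the sorted and unsorted samples overlapping. The drug and sort contrasts share the Ruc_Total samples.

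Factors known to speed the decay of cytokine messages were among the genes higher after sorting. Of 7 factors that act on AU-rich or stem-loop elements, 2 rose at 2 h: ZFP36 (tristetraprolin) by 1.94 (SE 0.27, adjusted p = 0.0016, edgeR) and ZC3H12A (regnase-1) by 1.14 (SE 0.27, adjusted p = 0.029, edgeR). At 24 h, where 9.47% of all genes were called, 4 of the 7 rose and HNRNPD fell. NFKBIZ, an NF-kB cofactor known to act on a subset of targets, rose by 1.61 (SE 0.40, adjusted p = 0.040, edgeR) at 2 h and by 2.17 (SE 0.41, adjusted p = 0.0048, edgeR) at 24 h, when BCL3 also rose and TNIP1 fell. Of the 15 other cytokines, CLCF1, a further ligand that signals through gp130, rose by 0.57 at 2 h (SE 0.13, adjusted p = 0.032, edgeR) and by 0.64 at 24 h (SE 0.13, adjusted p = 0.0085, edgeR). At 24 h TNF rose by 1.37 (SE 0.41, adjusted p = 0.042, edgeR) and IL32 fell by 0.67 (SE 0.17, adjusted p = 0.021, edgeR). Of the 10 epithelial markers, only KRT7 was called at 24 h, and it fell by 0.44 (SE 0.13, adjusted p = 0.040, edgeR). Over all genes, the sort contrast called 485 at 2 h and 380, 2 and 15 without replicates 1, 2 and 3, and at 24 h 1906 and 412, 5 and 2987. The way of harvest and the sort cannot be told apart in this contrast.

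Between the gates none of the 10 genes was called. Ruc_High was compared with Ruc_Low to ask whether cells that held more drug differed from cells that held less. At 2 h edgeR called 0.00497% of all genes and no member, and DESeq2 and limma-voom called no member. At an unadjusted p under 0.05 there was 1 member, beside 648 of all 20136 genes. CXCL8 was at 114, 38.8 and 45.97 CPM in Ruc_Low and 147, 55.9 and 64.2 in Ruc_High. It was higher in Ruc_High in 3 of 3 replicates (0.42, SE 0.40, adjusted p = 1, edgeR). The difference was smaller than the spread among replicates within each gate, and the main test does not pair samples by replicate number. With the replicate block, edgeR called no member in this comparison either. IL1A was the member with the unadjusted p under 0.05, at 0.818, 0.582 and 0.813 CPM in Ruc_Low and 0.978, 1.35 and 1.55 in Ruc_High (0.81, SE 0.33, adjusted p = 1, edgeR). In CPM the gates did not overlap for IL1A and did for CXCL8, and in TPM both genes overlapped. The other 8 members differed by -0.52 to 0.27.

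At 24 h edgeR called 0.109% of all genes, again no member, none at an unadjusted p under 0.05, and none by DESeq2 or limma-voom. CXCL8 stood at 110, 74.3 and 77.8 CPM in Ruc_Low and 125, 70.7 and 66.1 in Ruc_High, a difference of -0.0016 (SE 0.40). IL1A was still higher in Ruc_High in 3 of 3 replicates, by 0.30 (SE 0.32). The largest differences were 0.53 for CCL20 (SE 0.45) and -0.45 for CXCL3 (SE 0.48). The change of the gate difference between the times called 0% of all genes in edgeR and no member, with none at an unadjusted p under 0.05 and none by DESeq2 or limma-voom. For CXCL8 that change was -0.42 (SE 0.56), and between samples of the same number it was -0.18, -0.60 and -0.72.

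**Figure D3:**
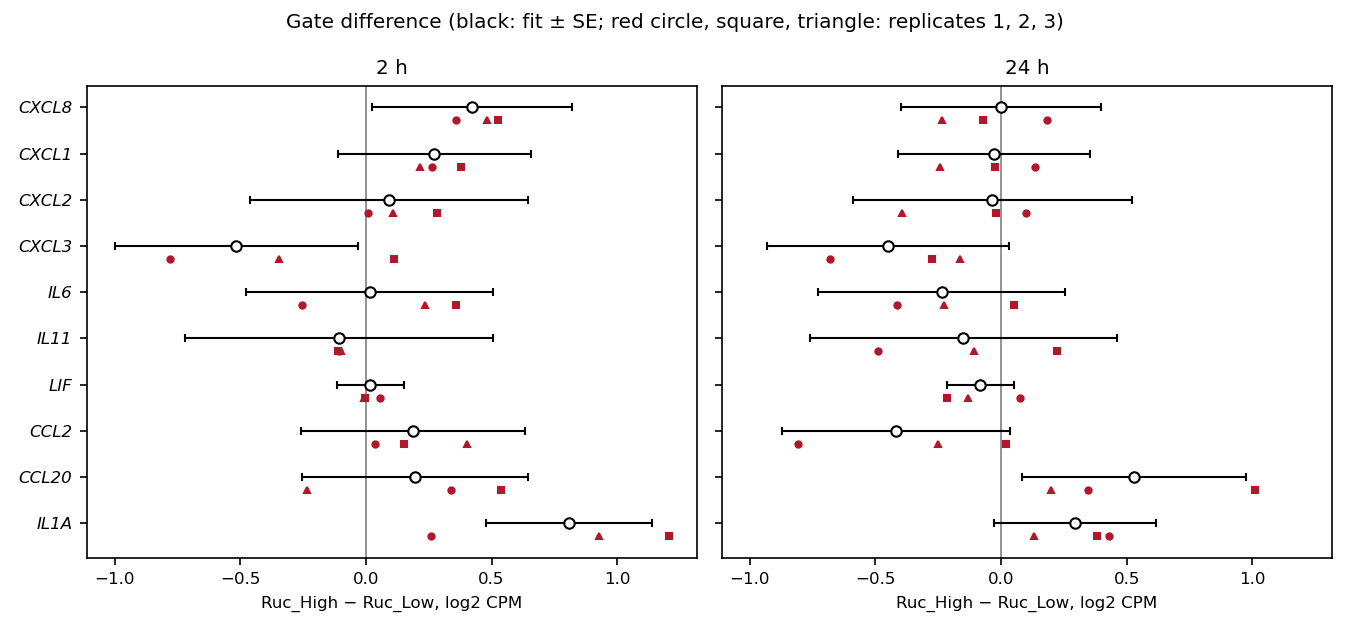
Ruc_High minus Ruc_Low in log2 CPM for the 10 genes at 2 and 24 h; black marks are the edgeR fit with its SE and red symbols are replicates 1 to 3. Most marks lie within 1 SE of 0, and IL1A lies above 0 in all 3 replicates at both times.

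Between 2 and 24 h, CCL2 was lower and IL1A higher at the later time in each treated arm. Neither passed in the main edgeR test in the sorted arms, while with the replicate block edgeR called IL1A in Ruc_Low. CCL2 was lower at 24 h in every treated arm, in 3 of 3 replicates of each, and in Vehicle too. In Vehicle, without a test, it was at 0.511, 1.67 and 2.94 CPM at 2 h and 0.671, 0.666 and 1.06 at 24 h (-1.10, SE 0.46), lower in 2 of 3 replicates, and -1.41 without replicate 1. The treated arms were not tested against Vehicle for this change. In Ruc_High it went from 3.00, 1.86 and 2.75 CPM to 0.978, 0.680 and 1.18 (-1.42, SE 0.46, edgeR adjusted p = 0.25). The 2 times did not overlap, and edgeR called 0.223% of all genes and no member. CCL2 alone of the members had an unadjusted p under 0.05, beside 1840 of all 20136 genes. DESeq2 called none, and limma-voom called CCL2 (adjusted p = 0.018) beside 2.04% of all genes. In Ruc_Low it went from 2.93, 1.67 and 2.08 CPM to 1.71, 0.670 and 1.41 (-0.82, SE 0.45, edgeR adjusted p = 0.68). In Ruc_Total, without a test, it was at 3.65, 3.39 and 6.26 CPM at 2 h and 0.872, 0.9 and 1.21 at 24 h (-2.16, SE 0.47).

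IL1A is described from its values in the same arms. In Ruc_Low it was at 0.818, 0.582 and 0.813 CPM at 2 h and at 1.15, 1.55 and 1.94 at 24 h (1.07, SE 0.33, edgeR adjusted p = 0.25), with no overlap. There edgeR called 0.278% of all genes and no member, and DESeq2 called no member. IL1A alone of the members had an unadjusted p under 0.05, beside 1729 of all 20136 genes. limma-voom called it (adjusted p = 0.035), beside 1.98% of all genes. With the replicate block, edgeR called IL1A in Ruc_Low as well. In Ruc_High it was 0.56 higher (SE 0.32, edgeR adjusted p = 0.65). In Vehicle and in Ruc_Total, without a test, it differed by 0.12 (SE 0.33; -0.06 without replicate 1) and 0.45 (SE 0.33). CXCL8 differed by 0.40 (SE 0.40) between the times in Ruc_Low and by -0.03 (SE 0.40) in Ruc_High. LIF differed by 0.0095 in Ruc_Total, without a test, by -0.01 in Ruc_Low and by -0.11 in Ruc_High.

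**Figure D4:**
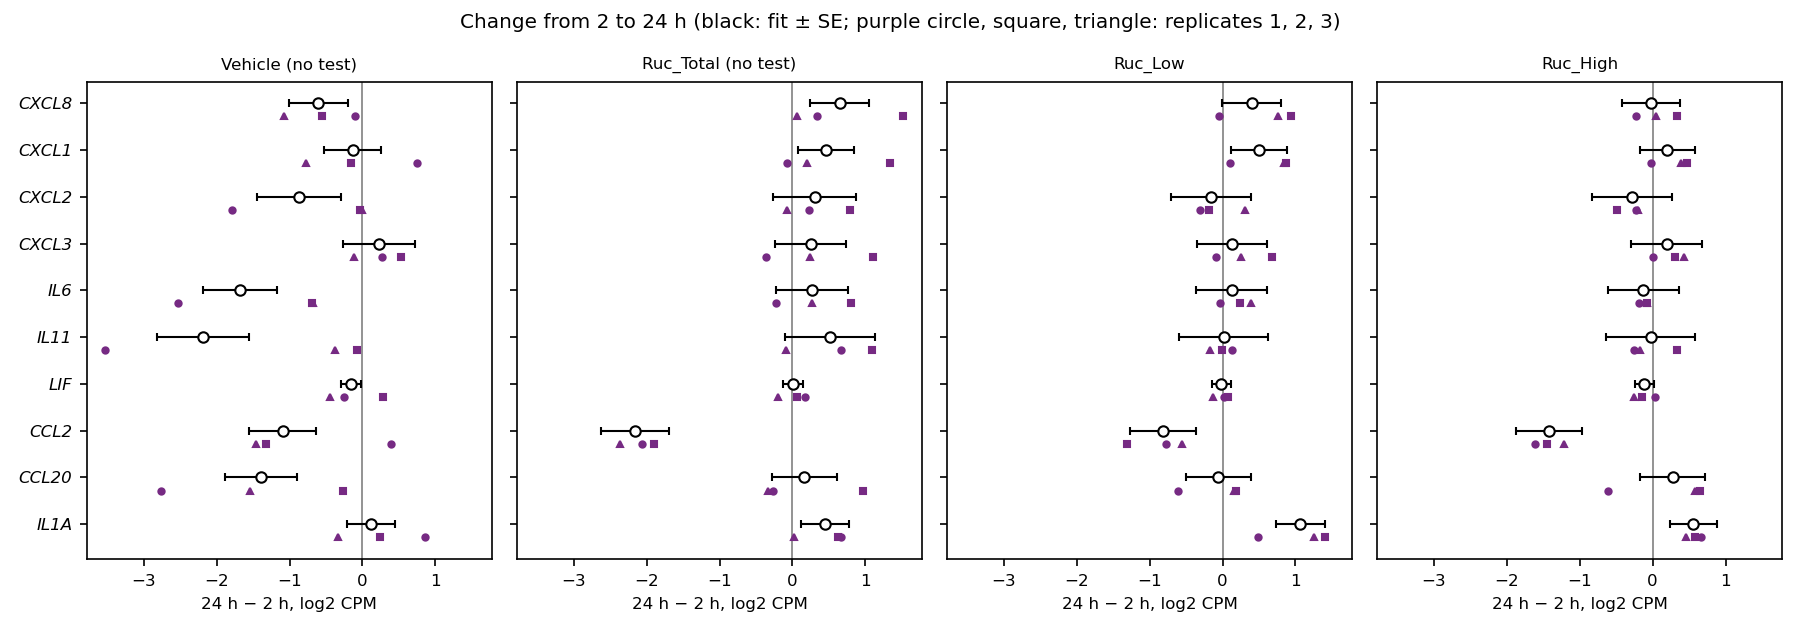
Change from 2 to 24 h in log2 CPM for the 10 genes within Vehicle, Ruc_Total, Ruc_Low and Ruc_High; black marks are the edgeR fit with its SE and purple symbols are replicates 1 to 3. CCL2 lies below 0 in all replicates of the 3 treated arms, and the Vehicle values of IL6 and IL11 are drawn out by replicate 1.

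The members did not vary as 1 block across the 24 samples. CXCL1 followed CXCL8 most closely of the other members (Pearson r of log2 CPM 0.97, and 0.95 after group means were removed), and of all 13654 genes with a mean of at least 1 CPM it ranked second. HBEGF, a ligand of the EGF receptor, ranked first (0.97), and KLF6, an early response transcription factor (0.95), INHBA, the activin A subunit (0.93), and TNFAIP3 (0.92) came next. LIF had r of 0.80 with CXCL8, CXCL2 0.76, CXCL3 0.73, IL6 0.67, IL1A 0.58, CCL2 0.27 and IL11 0.03. After group means were removed the order changed, with CXCL3 at 0.77, CXCL2 at 0.59, CCL2 at 0.46, IL6 at 0.39, LIF at 0.21, IL11 at 0.08 and IL1A at 0.05. CCL20, barely detected, was left out. All of these correlations describe 24 samples that share treatments, and no test was made on them.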

How the data were processed

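RNA-seq was deposited as 1 Salmon table per library for 72 libraries of PEO1 cells (8 groups, 3 biological replicates, 3 libraries each, poly(A) selected with a strand-specific kit). The authors' tables give estimated counts, TPM and effective length per transcript. The submitters' notes name cutadapt 4.7, Salmon (version not given in the sources used here), GRCh38 and DESeq2 1.44.0. Transcripts were matched to GENCODE v29: of 257369, 194437 matched by identifier and 11676 by symbol, and 51256 were left out, holding 7.10 to 8.95% of reads.

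Estimated counts were summed per gene and over the 3 libraries of a replicate, rounded, and tested with edgeR 4.0.16 (quasi-likelihood, TMM, filterByExpr, 20136 genes) in R 4.3.3, with a call at a Benjamini-Hochberg adjusted p under 0.05 over all genes. CPM are counts scaled to library size by TMM. Fold changes in the text are log2 differences unless called fold. Alternatives included DESeq2 1.42.0 and limma 3.58.1 (voom over the libraries with a random effect for the sample). No 2 files were identical, and libraries of a replicate differed by more than counting noise. The labels number the replicates and name no day or batch that equal numbers share, so the main test has no replicate block. The scripts were tested on simulated counts.

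The members and gene lists were chosen with earlier results of these data known. All 10 members are described. Of each other list, up to 4 called genes with the smallest adjusted p were named, or up to 2 with the highest TPM where none was called, and further genes named in the report were chosen after their values were seen. The 5 genes most like CXCL8 were ranked by Pearson r of log2 CPM (prior count 2). Barely detected means a highest group mean under 1 CPM. No test was made of members in Ruc_Total against Vehicle at 24 h, or in contrasts whose groups that comparison used.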

Additional observations from a re-analysis of the deposited data

Results flagged for a closer look

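Over 80 sets of 9 libraries (a member in a group), 3 held a library far from the other 8 by Dixon's criterion (0.493 for 9 values), where chance alone would give about 1 in 20. CCL2 stood at 8.12 CPM in a library of Ruc_Total replicate 3 at 2 h, and at 1.48 CPM in a library of Vehicle replicate 3 at 24 h. IL11 stood at 1.72 CPM in a library of Ruc_Low replicate 1 at 24 h. These values are over each library's own total. The libraries of a replicate are not independent samples, and the cause was not tested.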

How the results depend on the processing

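Member differences were recomputed under 16 alternatives. In comparisons with a test, 1008 kept their direction and side of the threshold, 20 became calls, 8 lost one, and 70 changed sign without a call at either setting, 1 of them to a value beyond its SE. In comparisons without a test, 599 moved by less than 1 SE and 33 by more. The number of members called for sorted cells at 2 h, 2 in the main analysis, was 4 with the replicate block, alone or with a transcript length covariate, 6 in limma-voom, and 1 with an offset for effective length, with limma on log2(TPM + 1) or without libraries under 2800 bases. It ranged from 0 to 2 when a replicate was left out, and was 0 without replicate 2 or replicate 3. For the drug at 2 h, 0 became 3 in limma-voom. For 24 against 2 h in Ruc_Low, 0 became 1 with the replicate block, alone or with the length covariate, and in limma-voom, and in Ruc_High 0 became 1 in limma-voom. Leaving out libraries of more than 25000 genes with the replicate block, chosen after seeing the data, gave 4 for sorted cells at 2 h, 1 in Ruc_Low and 1 in Ruc_High. The cause of these changes was not tested.

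Over all genes, the number called moved by more than 1.5 times. It was for the drug at 2 h 5, 29 with the block and 0 to 231 over all alternatives, for the drug at 24 h 674, 4826 with the block and 3 to 5663 over all alternatives, for the gates at 2 h 1, 76 with the block and 0 to 153 over all alternatives, for the gates at 24 h 22, 123 with the block and 0 to 232 over all alternatives, for the sorted cells at 2 h 485, 3006 with the block and 2 to 4818 over all alternatives, for the sorted cells at 24 h 1906, 4970 with the block and 5 to 5589 over all alternatives, for the Ruc_Low over time 56, 502 with the block and 0 to 1034 over all alternatives, for the Ruc_High over time 45, 566 with the block and 0 to 790 over all alternatives. No member was called for the gate difference under any alternative. CCL20 and IL11 gave no value where at least 1 CPM in 3 samples was asked for. CCL20 had 3 to 77 reads a sample, so counting error is part of its spread.

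Whether the replicate numbers pair the samples is not given by the labels. The paper's reporting summary places the replicates of sorting experiments on different days, without naming these libraries. Deviations from group means correlated at a median of 0.43 between samples of the same number (80 of 84 pairs over 0.1). Between numbers the median was -0.22, and removing group means by itself makes these values negative when those within a number are positive. Of 24 samples, 22 were closest to a sample of their own number, a hint that numbers pair the samples. With the replicate block, edgeR called CXCL2, LIF, CXCL3 and IL6 for sorted cells at 2 h and IL1A for Ruc_Low over time.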
